A study of Arabidopsis thaliana with 3 samples.

Results

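The genes of abscisic acid (ABA) signalling and of the dehydration and cold response were examined for binding of AIPP3, a BAH-domain chromatin protein that was studied as a reader of the histone mark H3K27me3. The set held 51 of the 27444 nuclear protein-coding genes of Arabidopsis thaliana. They were chosen by family name and TAIR10 locus, with ERD7 and SRC2 added by name, at a time when the peak lists of these libraries were already known. The counts below therefore describe the set, and no test was run on them. Of the 51 genes, 31 encode regulators of the ABA pathway and 20 encode outputs, the proteins that accumulate under water deficit or cold.

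Binding was measured by chromatin immunoprecipitation and sequencing (ChIP-seq) with a Myc antibody in 13-day-old seedlings of the Col-0 ecotype, grown in long days with no stress or ABA treatment named in the labels. The AIPP3-4Myc plants carried a Myc-tagged genomic copy of AIPP3 under its own promoter. Per the methods, each tagged gene was introduced into its own mutant and T3 plants were used, so the AIPP3-4Myc plants can differ from Col-0 in the AIPP3 locus as well as in the tag. The Col-0 plants carried no tag and gave the background of the antibody. There were 2 AIPP3-4Myc libraries and 1 Col-0 library. The descriptions of the 2 AIPP3-4Myc libraries carry differing codes whose meaning is not stated. Nothing in the labels therefore says whether these libraries came from separate cultures or lines.

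ABA is made in stressed tissue by cleavage of carotenoids through the NCED dioxygenases and is removed by the CYP707A hydroxylases. Receptors of the PYR/PYL family that hold ABA block the PP2C phosphatases, which frees the SnRK2 kinases to act on transcription factors such as the ABFs and ABI5. These factors bind the ABA-responsive element (ABRE) in front of the output genes, while the DREB and CBF factors of dehydration and cold bind the dehydration-responsive element (DRE) of many of the same genes. The outputs include dehydrins, which are hydrophilic proteins that protect membranes and other proteins when water is lost.

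The deposited files were peak lists from MACS, a program that marks stretches with more reads than expected from the surroundings. On chromosomes 1 to 5, AIPP3-4Myc replicate 1 held 926 peaks, AIPP3-4Myc replicate 2 held 430 and Col-0 held 16. Each peak carries a score, which is the negative log10 of its p-value times 10. The number of reads behind each list is unknown, so scores were ranked within a list. The exception is an alternative, given at the end, that put the same score threshold on every list. A gene was counted as bound when a peak covered at least 1 bp between 1 kb upstream of its transcription start site (TSS) and its transcription termination site (TTS). A gene without a peak had not passed the threshold of the peak caller, and may still have been bound below it. The AIPP3 locus itself, AT4G11560, had a peak in both AIPP3-4Myc lists and none in the Col-0 list. The AIPP3-4Myc plants carried an added genomic copy of this gene, so binding cannot be told apart here from reads of that copy.

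In AIPP3-4Myc replicate 1, 17 of the 51 genes were bound (33.3%), beside 5.11% of all protein-coding genes. In AIPP3-4Myc replicate 2, 13 were bound (25.5%), beside 2.28% of all protein-coding genes. Both AIPP3-4Myc lists shared 12 of the genes (23.5%), beside 1.67% of all protein-coding genes. None of the 51 was bound in Col-0, where 15 protein-coding genes (0.0547%) were bound, and the Col-0 peak closest to any of the 51 lay 73.6 kb from the target region of RD29A. The 12 shared genes made up 70.6% of those bound in replicate 1 and 92.3% of those bound in replicate 2, and over all protein-coding genes these shares were 32.7% and 73.3%. A comparison of 2 AIPP3-4Myc libraries with 1 Col-0 library cannot give an exact permutation p below 0.333, so the genotypes were not tested against each other.

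The regulators and the outputs were both represented. Of the 31 regulators, 9 were bound in replicate 1, 6 in replicate 2 and 5 in both (16.1%): PYL6, HAI1, PP2CA, NCED5 and NCED2. Of the 20 outputs, 8 were bound in replicate 1, 7 in replicate 2 and 7 in both (35.0%): COR47, ERD10, ERD14, RAB18, SRC2, ERD7 and ERD15. The dehydrins held the most members bound in both lists, 4 of 5. Of these, COR47, ERD14 and RAB18 were lost when each peak was given to the nearest TSS. The RD genes, the COR15 and KIN genes, the ABF factors with ABI5, and ABI3 had no peak in any list. Beside 1.67% of all protein-coding genes bound in both lists, the lack of a peak does not set these small families apart.

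**Figure D1:**
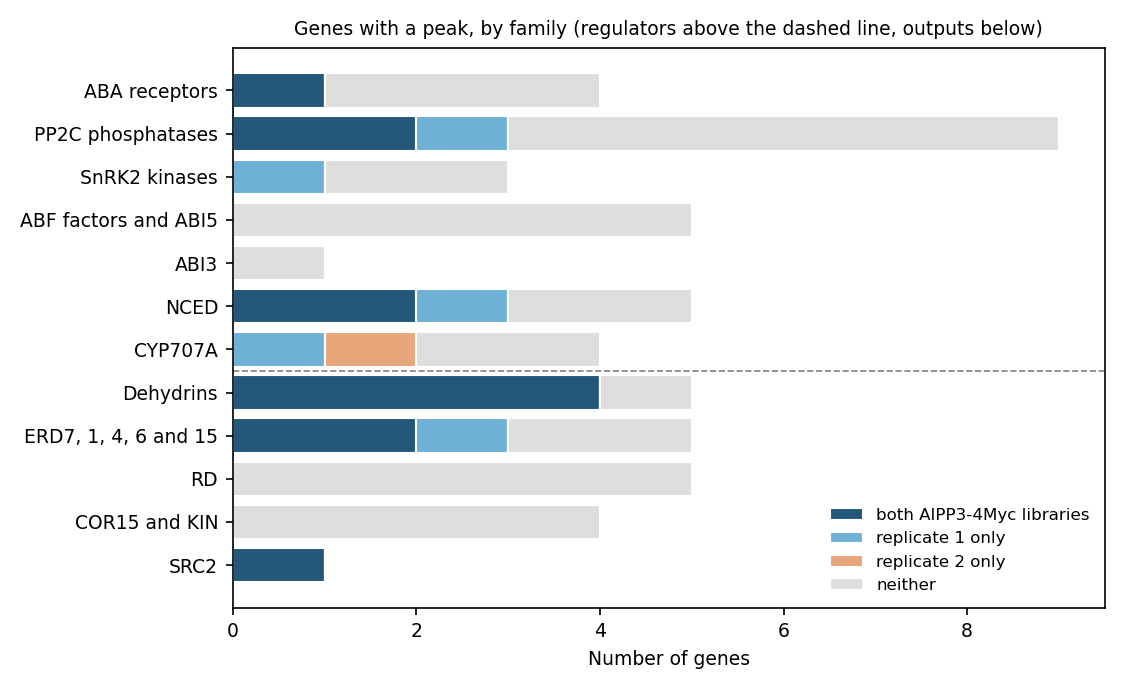
Number of genes per family (horizontal axis) that had an AIPP3-4Myc peak in both libraries, in replicate 1 only, in replicate 2 only or in neither. The dehydrins had 4 of 5 members bound in both libraries, of which ERD10 alone remained when each peak was given to the nearest TSS. None of the 5 ABF and ABI5 genes, the 5 RD genes or the 4 COR15 and KIN genes was bound in either. Over all protein-coding genes 1.67% were bound in both libraries.

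Among the receptors, PYL6 (AT2G40330, chr2:16844588-16846194, minus strand) was bound in both AIPP3-4Myc lists and PYR1, PYL4 and PYL5 were bound in neither. The PYL6 peak spanned chr2:16844876-16846231 in replicate 1 with a score of 53.1, which placed it 837th of 926. In replicate 2 it spanned chr2:16844919-16846051 with a score of 59.5, 305th of 430. Both peaks thus belonged to the weaker part of their list, and both covered the whole coding sequence of this gene, which lies in a single exon. They were also the narrowest peaks at any of the 12 shared genes, with 1356 bp in replicate 1 and 1133 bp in replicate 2.

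Of the 9 PP2C phosphatase genes of this set, 3 carried a peak in replicate 1 and 2 carried one in both lists. Over all protein-coding genes these shares were 5.11% and 1.67%. HAI1 (AT5G59220, chr5:23894404-23896939, minus strand), a phosphatase gene named for its induction by ABA, had a score of 149 in replicate 1 (81st of 926) and of 52.8 in replicate 2 (384th of 430). Its place in the list, at 8.75% from the top in replicate 1 and 89.3% in replicate 2, differed more between the libraries than that of any other of the 12 shared genes. PP2CA (AT3G11410, chr3:3583782-3585850, minus strand), which acts on SnRK2 kinases and on ion channels of guard cells, had a score of 62.5 in replicate 1 (627th) and of 55.4 in replicate 2 (345th). HAI2 (AT1G07430, chr1:2280746-2282828, minus strand) was bound in replicate 1 alone, with a score of 117 (155th), under a peak that covered its whole gene body. ABI1 and ABI2, the phosphatases known from ABA-insensitive mutants, had no peak in any list, and neither had HAB1, HAB2, HAI3 and AHG1.

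The genes that set the level of the hormone followed both patterns. NCED5 (AT1G30100, chr1:10571310-10573365, plus strand) ranked 13th of 926 in replicate 1 with a score of 299 and 113th of 430 in replicate 2 with a score of 103. Its replicate 1 peak was 3201 bp wide and its replicate 2 peak was 1623 bp wide, and the narrower peak lay wholly inside the wider one. NCED2 (AT4G18350, chr4:10142255-10144646, plus strand) ranked 33rd in replicate 1 with a score of 212 and 313th in replicate 2 with a score of 58.6. Both genes therefore stood far higher in the longer list than in the shorter one. NCED6 (AT3G24220), a family member known from seeds, had a peak in replicate 1 alone (score 84.6, 345th), and NCED3, the member known for drought-induced ABA synthesis, and NCED9 had none. Among the catabolic genes, CYP707A1 (AT4G19230) was bound in replicate 1 alone (score 82.4, 361st) and CYP707A3 (AT5G45340) in replicate 2 alone (score 56.2, 336th). The called peak of replicate 1 nearest to CYP707A3 was 9.16 kb away, and the files do not show the signal below the threshold at this gene. CYP707A2 and CYP707A4 had no peak.

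The kinases and transcription factors lie between the hormone and its outputs, and none of the 9 in the set was bound in both lists. With so few genes and 1.67% of all protein-coding genes bound in both, this count does not set them apart. Of the 3 SnRK2 kinase genes, SNRK2.2 (AT3G50500, chr3:18741444-18744174, minus strand) alone had a peak, in replicate 1 only, with a score of 99.9 (242nd of 926). That peak lay wholly in front of the gene, from 163 to 1754 bp upstream of the TSS, over the neighbouring gene LBD28 (AT3G50510), a LOB-domain factor gene. When only gene bodies were counted, SNRK2.2 was no longer bound. SNRK2.3 and SNRK2.6 (the guard cell kinase OST1), ABF1, ABF2, ABF3, ABF4, ABI5 and ABI3 had no peak. The nearest peak to ABF2 was 276 kb away in replicate 1 and 295 kb away in replicate 2, whereas ABI5 and SNRK2.6 had peaks at 10.9 kb and 7.65 kb in replicate 1.

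Among the output families with several members, the dehydrins had the largest share bound in both lists, 4 of 5, beside 1.67% of all protein-coding genes. The further dehydrin genes XERO1 and HIRD11, outside the set, had no peak. The dehydrin share depended on the settings. When each peak was given to the nearest TSS, only ERD10 of the 4 stayed bound in both lists. At a score of at least 100 only ERD14 did. The share of all protein-coding genes fell to 0.955% and 0.496% under these settings. COR47 (AT1G20440, chr1:7084409-7086873, minus strand) and ERD10 (AT1G20450, chr1:7087903-7089606, minus strand) are neighbours that encode related acidic dehydrins, and each had a peak of its own in both lists. The COR47 peak scored 95.1 in replicate 1 (270th of 926) and 91.4 in replicate 2 (142nd of 430). The ERD10 peak scored 100.4 in replicate 1 (239th) and 70.6 in replicate 2 (236th), and in replicate 1 it also reached 16 bp into the upstream region of COR47. The gap between the COR47 and ERD10 peaks was therefore not filled by a joined peak in either library. ERD14 (AT1G76180, chr1:28586663-28587931, minus strand), which encodes another acidic dehydrin, scored 111 in replicate 1 (183rd) and 126 in replicate 2 (67th). RAB18 (AT5G66400, chr5:26518277-26519447, minus strand), the ABA-responsive dehydrin, scored 51.2 in replicate 1 (894th) and 56.0 in replicate 2 (340th), where the lowest scores were 50 in the list of replicate 1 and 50.1 in that of replicate 2. It was the member closest to the threshold in replicate 1. LTI30, the cold-induced dehydrin, had no peak within 56.3 kb in replicate 1 or 56.5 kb in replicate 2.

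The highest scores of the whole set were at ERD7 and SRC2. ERD7 (AT2G17840, chr2:7755605-7757929, minus strand), an early dehydration-induced gene whose protein binds membrane lipids, scored 368 in replicate 1 (8th of 926) and 389 in replicate 2 (3rd of 430). SRC2 (AT1G09070, chr1:2927502-2929107, plus strand), a C2-domain protein gene named after cold-regulated soybean genes, scored 302 in replicate 1 (12th) and 232 in replicate 2 (12th). These genes had been added to the set by name, so their rank is a description only. ERD15 (AT2G41430, chr2:17269158-17270542, plus strand), which encodes a small protein that binds poly(A)-binding proteins, scored 126 in replicate 1 (126th) and 212 in replicate 2 (19th). As a percent of the list, ERD15, ERD14, ERD7, RAB18 and the regulator PYL6 stood higher in the shorter list of replicate 2. NCED5, NCED2, HAI1, PP2CA and the outputs ERD10, COR47 and SRC2 stood lower there. ERD4 (AT1G30360), a membrane protein gene, was bound in replicate 1 alone with a score of 61.1 (663rd). ERD1, which encodes a subunit of a chloroplast protease, and ERD6, a sugar transporter gene, had no peak.

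**Figure D2:**
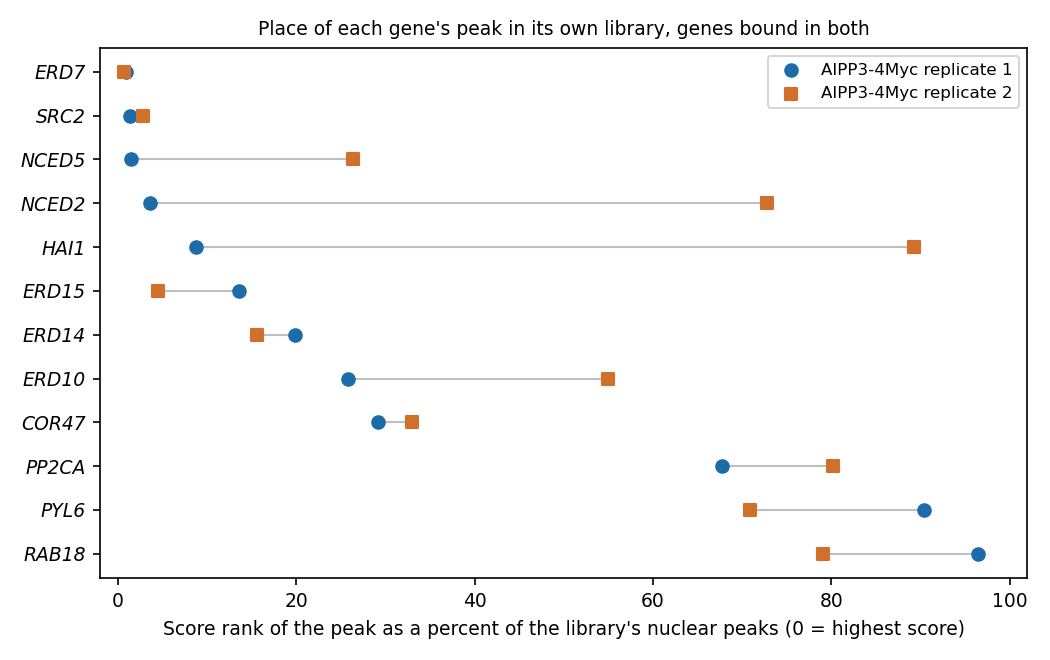
Score rank of the peak at each of the 12 genes bound in both libraries, as a percent of that library's nuclear peaks (horizontal axis, 0 is the highest score), for AIPP3-4Myc replicate 1 (circles) and replicate 2 (squares). ERD7 and SRC2 lay within the top 2.79% of both lists, while HAI1 lay at 8.75% in replicate 1 and 89.3% in replicate 2.

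Across the 12 shared genes the rank was at a median of 16.7% of the list in replicate 1 and 43.9% in replicate 2. Over all 459 protein-coding genes bound in both lists the medians were 27.0% and 41.4%. Spearman's rho between the 2 ranks over the 12 genes was 0.58, given as a description because the genes share both libraries. The top 5% of the list held 4 of the 17 genes bound in replicate 1 and 3 of the 13 bound in replicate 2. The set thus spanned nearly the whole range of ranks in both libraries.

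Several much-used stress marker genes were among the unbound genes, while 7 of the 20 outputs, RAB18 and COR47 among them, were bound in both lists. Beside 1.67% of all protein-coding genes bound in both lists, the lack of a peak does not set so few genes apart. RD29A (LTI78, AT5G52310) and RD29B (LTI65, AT5G52300), which stand next to each other on chromosome 5 and serve as reporters of dehydration and ABA, were 63.4 and 67.6 kb from the nearest peak in replicate 1 and 57.7 and 61.9 kb from it in replicate 2. COR15A (AT2G42540) and COR15B (AT2G42530), which encode chloroplast proteins that stabilise membranes in the cold, were 61.3 and 59.5 kb from a peak in replicate 1 and 189 and 191 kb from one in replicate 2. KIN1 and KIN2, genes for small cold-induced proteins, were 41.5 and 39.6 kb away in replicate 1 and 223 and 225 kb away in replicate 2. The absence of a peak at these genes was therefore not a matter of the edge of the target region. RD20 (a caleosin gene), RD22 (a BURP-domain protein gene) and RD26 (a NAC factor gene) had no peak either, and RD22 was the closest of them to one, at 18.2 kb in replicate 1.

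**Figure D3:**
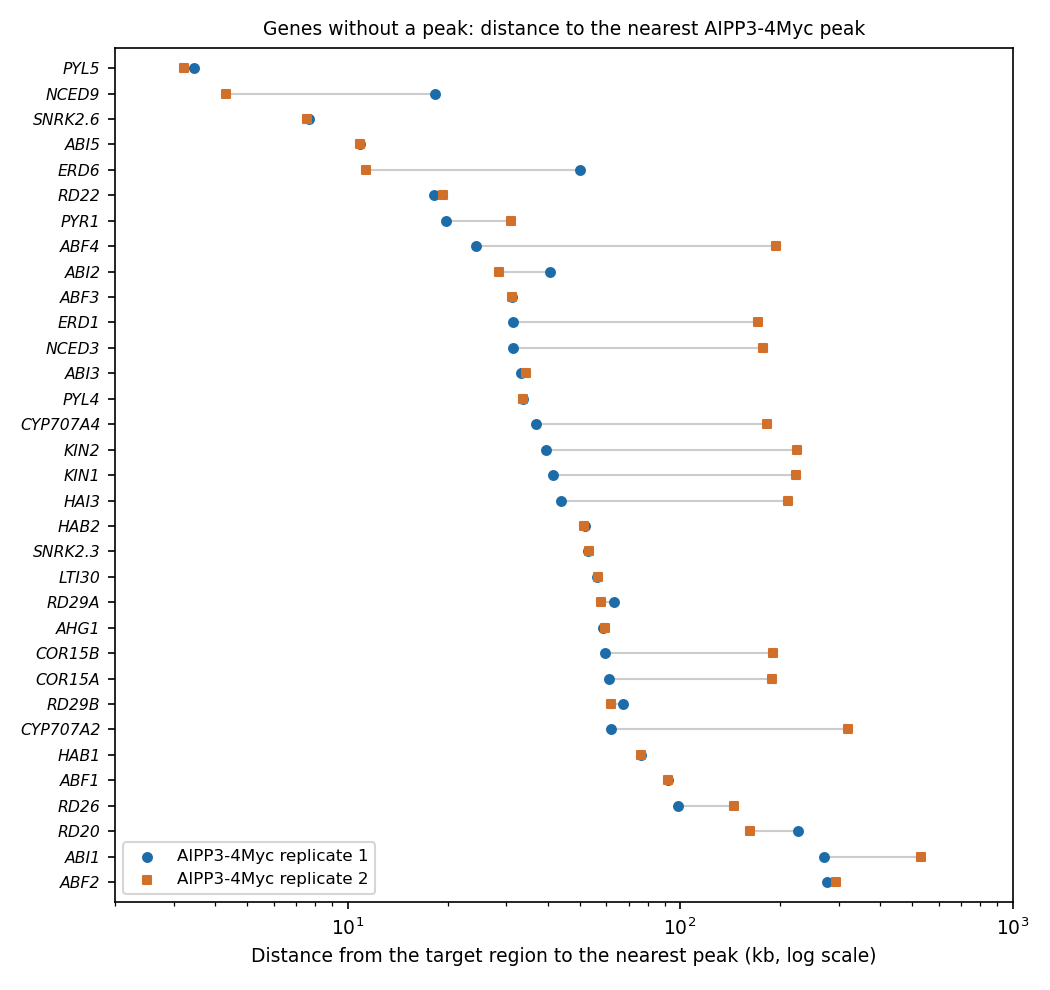
Distance in kb (log scale) from the target region of each of the 33 unbound genes to the nearest peak of AIPP3-4Myc replicate 1 (circles) and replicate 2 (squares). PYL5 was the closest, at 3.46 kb in replicate 1 and 3.23 kb in replicate 2, and the farthest were ABF2 in replicate 1, at 276 kb, and ABI1 in replicate 2, at 531 kb.

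The closest unbound genes were PYL5, NCED9 and SNRK2.6. PYL5 lay 3.46 kb from a peak in replicate 1 and 3.23 kb from one in replicate 2, and this peak was the one over DREB2A. NCED9 was 18.3 kb from a peak in replicate 1 and 4.30 kb from one in replicate 2. No unbound gene had a peak just outside the target region, so widening the region to 2 kb upstream added none of the 51 genes.

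The peaks lay over the genes more than over their upstream regions. Over the 12 shared genes the peak covered a median of 100% of the gene body in replicate 1 and 92.8% in replicate 2. Over the 459 protein-coding genes bound in both lists these medians were 84.7% and 72.4%. The peak midpoint lay at a median of 965.5 bp downstream of the TSS in replicate 1 and 902.5 bp in replicate 2, against 793 bp and 790 bp over the 459 genes. The whole coding sequence was under the replicate 1 peak at all 12 genes, and under the replicate 2 peak at 10 of them, with 80.0% of it at NCED5 and 78.2% at NCED2. COR47 is annotated with a TSS 1209 bp before its coding sequence, and its peaks began 955 bp from that TSS in replicate 1 and 948 bp from it in replicate 2, over 61.3% and 61.5% of the gene body. In replicate 1, 12 of 18 pairs of a gene and a peak had the midpoint in coding sequence, 3 in an intron, 1 in an untranslated region and 2 outside the gene, namely the SNRK2.2 peak and the ERD10 peak as seen from COR47.

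**Figure D4:**
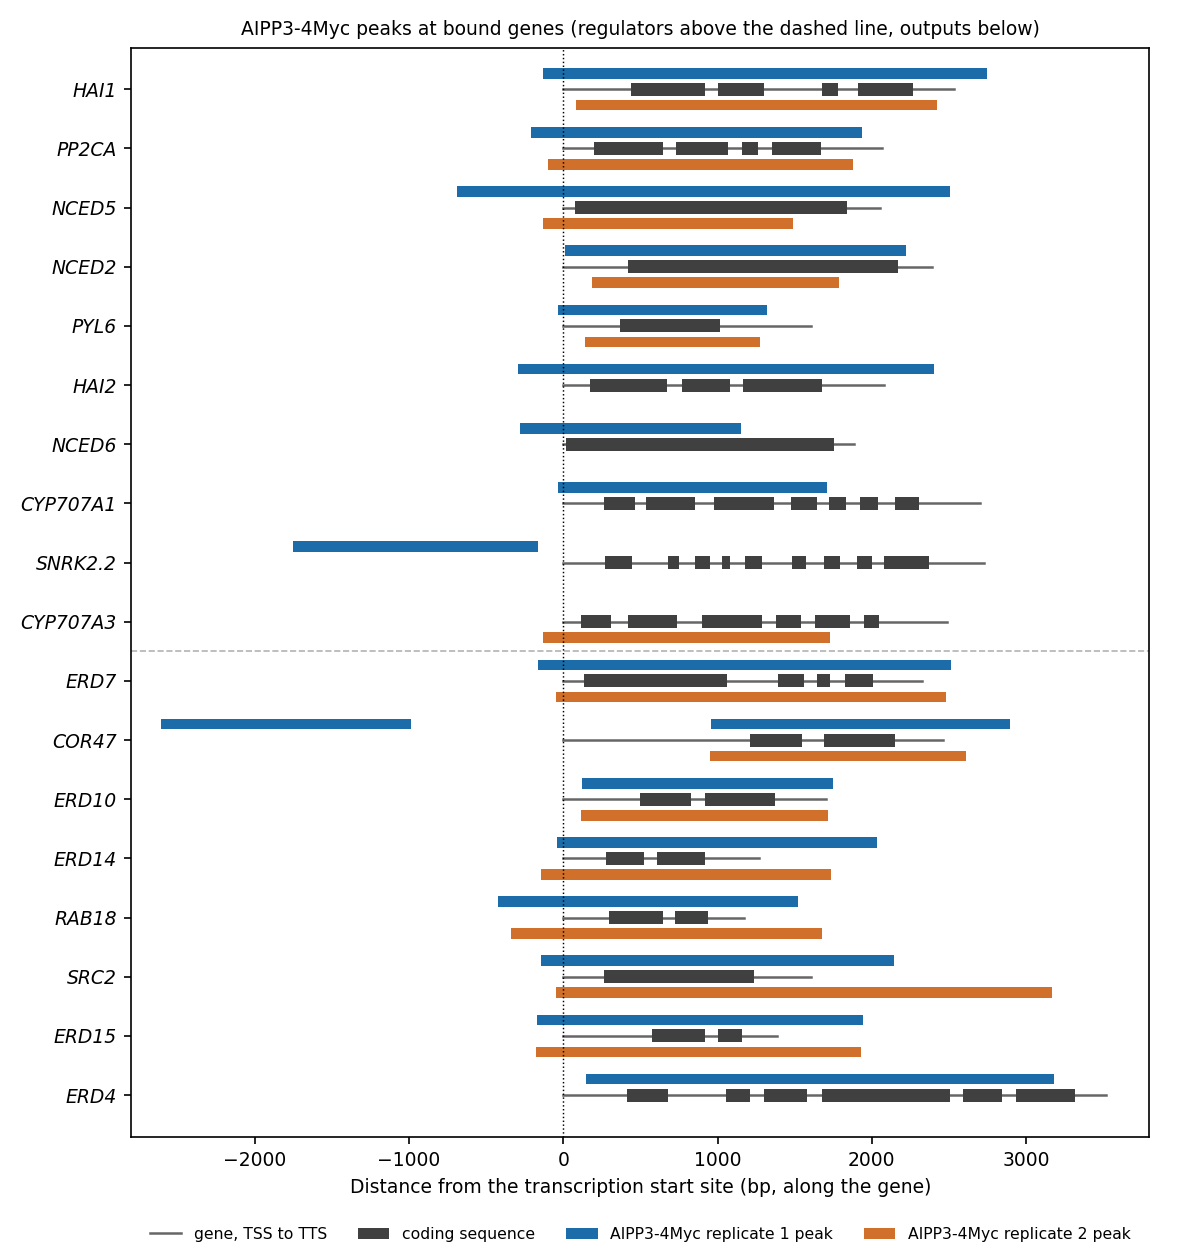
Peaks of AIPP3-4Myc replicate 1 (upper bars) and replicate 2 (lower bars) at every bound gene, drawn by distance in bp from the TSS along the gene, with the gene as a thin line and its coding sequence as dark boxes. The peaks of the 12 shared genes covered 61.3% to 100% of the gene body in replicate 1, the SNRK2.2 peak lay wholly upstream of its gene, and the upstream bar at COR47 is the ERD10 peak.

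Both libraries placed the peak in nearly the same position at most of the 12 genes. The stretch under both peaks was 2530 bp at ERD7, which was 94.4% of the replicate 1 peak and 100% of the replicate 2 peak. At ERD15 the peaks coincided almost to the base, with 99.4% and 99.9% shared, and at ERD10 with 98.0% and 99.4%. The least alike were NCED5, where the shared stretch was 50.7% of the replicate 1 peak, and SRC2, where it was 68.1% of the replicate 2 peak. At SRC2 the replicate 2 peak ran 1564 bp past the TTS over the next gene, AT1G09080, whereas the replicate 1 peak ended 538 bp past it. Peaks also touched the target regions of other protein-coding genes at ERD7, COR47, ERD14, RAB18, SRC2, HAI1 and ERD15 in both libraries, and the peaks at PP2CA, NCED5, NCED2 and PYL6 touched no other. When each peak was given to the gene with the nearest TSS, COR47, ERD14 and RAB18 were no longer bound in both lists and 4 of the 20 outputs remained. The share of all protein-coding genes bound in both lists was then 0.955%.

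The sequence under the peaks was described by one motif and by its base composition. The motif GAGAGA, counted on both strands with overlaps allowed, is the repeat that GAGA-type factors recognise. Per kb of the stretch under both peaks it occurred 6.07 times at PP2CA, 4.93 at NCED5, 4.28 at HAI1, 3.53 at PYL6 and 3.12 at NCED2. Among the outputs it occurred 1.98 times per kb at ERD7, 1.37 at SRC2, 0.951 at ERD15, 0.628 at ERD10, 0.603 at COR47, 0.536 at RAB18 and 0 at ERD14. In these stretches the 5 regulators and the 7 outputs of the set did not overlap, with medians of 4.28 and 0.628 matches per kb. Over their whole gene bodies they did overlap, at 2.09 to 5.80 and 0 to 2.15 matches per kb. The further pathway regulators bound in both lists, DREB2A with 0.827 matches per kb of stretch and PYL7 with 0.939, lay inside the range of the outputs. The gap thus held for the stretches of the 12 genes and not for the pathway more widely. This contrast was noticed after the values were seen, so it was not tested. The peaks at the 51 genes as a whole had a median of 1.87 matches per kb in replicate 1 and 1.98 in replicate 2, close to the 1.65 and 1.72 over all nuclear peaks of these lists. The GC content was also higher at the regulators, with 41.4% to 47.0% at the 5 regulators and 37.2% to 43.5% at the 7 outputs, and its part in the motif counts was not tested. In whole gene bodies the 5 regulators bound in both lists had a median of 3.89 matches per kb and the 21 unbound regulators 1.79, and the ranges overlapped, at 2.09 to 5.80 and 0.817 to 4.44. The outputs ran the other way, with a median of 0.587 in the 7 bound in both lists and 1.27 in the 12 unbound, and over the whole set the 12 shared genes had 1.77 and the 33 unbound genes 1.74.

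**Figure D5:**
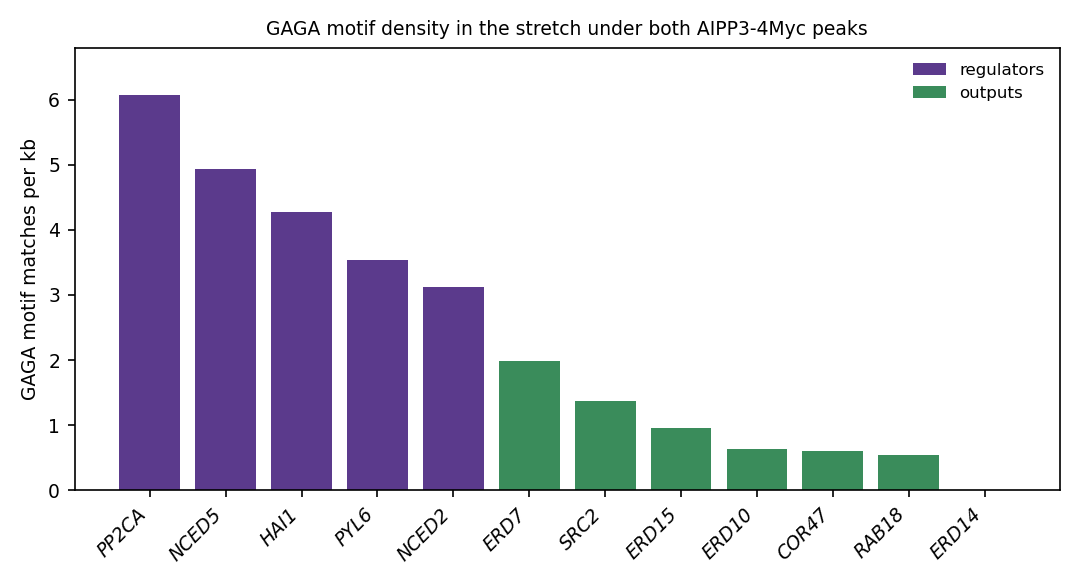
Matches to GAGAGA per kb (both strands) in the stretch under both AIPP3-4Myc peaks at each of the 12 shared genes, regulators and outputs in separate colours. The regulators lay between 3.12 and 6.07 matches per kb and the outputs between 0 and 1.98, where DREB2A and PYL7, which are not drawn, also lie. Over whole gene bodies the ranges of the regulators and the outputs overlapped.

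To show this sequence, the 100-bp coding window with the most GAGAGA matches under both peaks is given for 3 regulators and 3 outputs, 5′ to 3′ on the strand of the gene in the TAIR10.1 assembly, whose nuclear coordinates are those of TAIR10. Capitals mark the matches, written TCTCTC where they lie on the other strand. A run of 8 alternating letters holds 2 overlapping matches.
NCED5 coding window, chr1:10571764-10571863, plus strand: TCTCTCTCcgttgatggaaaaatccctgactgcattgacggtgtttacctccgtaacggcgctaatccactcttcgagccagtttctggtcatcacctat
NCED2 coding window, chr4:10143846-10143945, plus strand: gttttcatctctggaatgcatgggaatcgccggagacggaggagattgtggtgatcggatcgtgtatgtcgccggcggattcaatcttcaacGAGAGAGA
PP2CA coding window, chr3:3584798-3584897, minus strand: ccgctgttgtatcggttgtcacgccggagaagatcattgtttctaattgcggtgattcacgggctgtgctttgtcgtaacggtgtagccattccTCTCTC
ERD7 coding window, chr2:7757052-7757151, minus strand: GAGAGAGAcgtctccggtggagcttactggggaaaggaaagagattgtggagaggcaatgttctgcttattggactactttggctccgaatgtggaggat
SRC2 coding window, chr1:2928145-2928244, plus strand: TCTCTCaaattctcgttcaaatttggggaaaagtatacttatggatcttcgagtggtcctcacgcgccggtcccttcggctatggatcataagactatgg
ERD14 coding window, chr1:28587035-28587134, minus strand: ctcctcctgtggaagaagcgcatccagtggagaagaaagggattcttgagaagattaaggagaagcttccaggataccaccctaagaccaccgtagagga
The windows of NCED5, NCED2 and ERD7 each held 2 matches, those of PP2CA and SRC2 held 1, and that of ERD14 held none. They therefore do not show the gap between regulators and outputs that was counted over whole stretches. At PP2CA no coding window held more than 1 match, although its stretch held 12. At HAI1 no coding window held a match, although its stretch held 10, so they lay in introns, untranslated regions or across exon edges.

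The upstream regions carried the elements of the pathway whether or not a gene was bound. The ABRE core ACGTG and the DRE core CCGAC were searched on both strands in the 250 bp before each TSS, so that the palindrome CACGTG counts as 2 ABRE matches. The ABRE core was present in 5 of the 12 genes bound in both lists (41.7%) and in 19 of the 33 unbound genes (57.6%), beside 22.9% of all protein-coding genes. The DRE core was present in 3 of the 12 (25%) and in 8 of the 33 (24.2%), beside 12% of all protein-coding genes. Among the outputs, 6 of the 12 unbound genes (50%) held a DRE core and 2 of the 7 shared genes (28.6%) did. GAGAGA was in none of the 12 shared upstream regions and in 5 of the 33 unbound ones, beside 20.6% of all, and the telobox AAACCCTA was in none of the 51, beside 4.49% of all. A match is a stretch of letters and was not measured as a site of binding.

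The upstream windows of 2 bound and 3 unbound genes show these elements, in capitals, from 250 bp before the TSS to the base before it, 5′ to 3′ on the strand of the gene. CACGT and GTCGG are the ABRE and DRE cores on the other strand.
PP2CA upstream window, chr3:3585851-3586100, minus strand: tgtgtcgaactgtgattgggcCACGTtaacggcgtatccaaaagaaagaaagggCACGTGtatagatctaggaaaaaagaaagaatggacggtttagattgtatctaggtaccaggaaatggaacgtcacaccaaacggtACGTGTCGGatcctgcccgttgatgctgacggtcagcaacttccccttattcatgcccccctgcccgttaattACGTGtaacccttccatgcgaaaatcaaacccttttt
ERD7 upstream window, chr2:7757930-7758179, minus strand: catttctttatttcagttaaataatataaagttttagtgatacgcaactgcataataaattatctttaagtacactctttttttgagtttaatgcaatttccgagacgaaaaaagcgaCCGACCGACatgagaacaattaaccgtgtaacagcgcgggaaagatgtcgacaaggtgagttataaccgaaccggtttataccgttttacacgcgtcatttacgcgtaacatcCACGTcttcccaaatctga
RD29A upstream window, chr5:21240467-21240716, plus strand: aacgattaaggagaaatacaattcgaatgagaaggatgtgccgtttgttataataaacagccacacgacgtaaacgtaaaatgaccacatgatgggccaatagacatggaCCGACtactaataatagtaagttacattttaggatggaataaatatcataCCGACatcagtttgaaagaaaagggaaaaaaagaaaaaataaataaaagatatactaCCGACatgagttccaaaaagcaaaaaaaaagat
RD29B upstream window, chr5:21236771-21237020, plus strand: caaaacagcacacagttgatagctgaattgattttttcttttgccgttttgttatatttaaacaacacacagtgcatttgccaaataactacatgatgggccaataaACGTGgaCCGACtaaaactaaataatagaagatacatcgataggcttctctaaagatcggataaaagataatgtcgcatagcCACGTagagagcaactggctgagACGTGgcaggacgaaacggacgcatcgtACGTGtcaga
COR15A upstream window, chr2:17712331-17712580, minus strand: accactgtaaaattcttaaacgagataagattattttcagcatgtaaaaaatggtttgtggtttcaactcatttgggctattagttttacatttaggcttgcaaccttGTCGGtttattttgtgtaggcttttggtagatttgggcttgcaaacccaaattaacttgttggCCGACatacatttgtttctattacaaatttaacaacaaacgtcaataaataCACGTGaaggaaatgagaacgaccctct
PP2CA, which was bound, held 5 ABRE matches and 1 DRE match, and ERD7, bound with the highest scores of the set, held 1 and 2. Within its window RD29A held 3 DRE matches and no ABRE match, which does not cover the sequence downstream of the annotated TSS. RD29B held 4 and 1 of the ABRE and DRE cores, and COR15A held 2 of each. None of these 3 genes had a peak. Upstream elements of the pathway were thus found in bound and in unbound genes.

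In length and exon number the shared genes resembled the bound genes of the whole genome. Their median length was 1880 bp, against 1915 bp for the 459 protein-coding genes bound in both lists, 2626 bp for the 33 unbound genes and 2078 bp for all protein-coding genes. They had a median of 2 coding exons, as had the 459 genes, against 4 in the unbound genes and 3 in all protein-coding genes, and 4 of the 12 had a single coding exon (33.3%), against 6 of the 33 unbound genes (18.2%) and 23.3% of all protein-coding genes. Among the 459 genes bound in both lists 37.9% had a single coding exon. In the set these were PYL6, NCED5, NCED2 and SRC2. No 50-bp sequence of the 12 genes recurred elsewhere in the genome, and among the 51 genes only KIN1, KIN2, ABI5 and SNRK2.2 held such sequences, over at most 1.67% of their length.

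Of 43 further genes of the pathway, listed from gene knowledge, 3 were bound in replicate 1 (6.98%), beside 5.11% of all protein-coding genes, 5 in replicate 2 (11.6%), beside 2.28%, and 3 in both (6.98%), beside 1.67%. The share in replicate 1 was thus near that of all genes. Of the 30 regulators among them 2 were bound in both lists, and of the 13 outputs 1 was. DREB2A (AT5G05410), the factor that binds the DRE under drought and heat, scored 123 in replicate 1 (133rd of 926) and 79.2 in replicate 2 (191st of 430), with its whole gene body under both peaks. ERD5 (AT3G30775), the proline dehydrogenase gene, scored 70.7 in replicate 1 (495th) and 75.8 in replicate 2 (208th), under peaks over 41.3% and 41.8% of its gene body. PYL7 (AT4G01026) was reached by peaks that lay mostly upstream of it, with 1.56% of its gene body covered in replicate 1 and 29.3% in replicate 2. RD19 (AT4G39090), a cysteine protease gene, and ERD13 (AT2G30870), a glutathione transferase gene, were bound in replicate 2 alone, with scores of 74.6 and 63.7. CBF1, CBF2, CBF3, ABI4, the 7 other SnRK2 genes and the 4 further genes of ABA synthesis had no peak in any list. None of the 43 was bound in Col-0.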

How the data were processed

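ChIP-seq peak lists of 2 AIPP3-4Myc libraries and 1 Col-0 library were analysed. The authors aligned reads to TAIR10 using Bowtie2 (version 2.2.8) and called peaks in each library with MACS (version 1.4), both with default parameters. The deposited score of each peak is the authors' MACS score, 10 times the negative log10 of its p-value. Whether a control library was used in peak calling, and the read depth, are not given in the sources used here. Scores were therefore ranked within a list, apart from the alternative with a common score threshold. Peaks on chromosomes 1 to 5 were intersected with TAIR10.1 RefSeq gene models (37899 nuclear genes, 27444 of them protein-coding) in Python 3.11.15 with pandas 2.3.3 and NumPy 2.4.6. The target region, from 1 kb upstream of the TSS to the TTS, followed the study, but its ChIPseeker assignment was not used. The intersection was checked on simulated peaks, and 200 of 200 placed inside known genes were recovered. The members and lists were chosen with earlier results of these data known. Every member bound in at least 1 AIPP3-4Myc list is named, unbound members are named by family, and further pathway genes are named when bound. Windows printed were picked for their motifs. Alternatives changed the score threshold, the overlap, the target region, the gene assignment, the list length and the libraries used. Organelle peaks were left out, and no statistical test was run.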

Additional observations from a re-analysis of the deposited data

How the results depend on the processing

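Counts moved by more than 1.5 times under the score threshold, the nearest-TSS assignment, the shortened list and the use of a single library. The other alternatives, which changed the overlap or the target region or left out peaks that overlap a Col-0 peak, moved no count that far. With a score of at least 100, 10 of the 51 genes were bound in AIPP3-4Myc replicate 1, 5 in AIPP3-4Myc replicate 2 and 5 in both (ERD7, ERD14, SRC2, NCED5 and ERD15), of which 1 was a regulator and 4 were outputs, and 0 of the 43 further genes were bound in both. The shares of all protein-coding genes fell too, to 1.31% in replicate 1, 0.685% in replicate 2 and 0.496% in both. This threshold was put on lists of unknown depth, so its counts cannot be compared between the libraries. COR47 was among the 10 only through the ERD10 peak, which reached 16 bp into its upstream region, as its own replicate 1 peak scored 95.1. Assigning each peak to the nearest TSS left 4 outputs bound in both (COR47, ERD14 and RAB18 were lost) and 9 of the 51 genes, beside 0.955% of all protein-coding genes. Shortening the list of replicate 1 to the length of that of replicate 2 left 3 regulators (PP2CA and PYL6 were lost) and also 9 of the 51 genes, beside 1.24% of all protein-coding genes. Counting 1 library alone gave 13 to 17 of the 51 genes, 6 to 9 regulators, 7 to 8 outputs and 3 to 5 further genes, and the regulators without replicate 2 (9) and the further genes without replicate 1 (5) moved most. The share of all protein-coding genes was 2.28% without replicate 1 and 5.11% without replicate 2. With RD26 counted as a regulator, 5 of 32 regulators and 7 of 19 outputs were bound in both. None of the 51 genes was bound in Col-0 in any alternative run. No paired analysis was possible because no test was run and the Col-0 group holds a single library. With the depth of the lists unknown, a gene without a peak may be bound below the threshold, and the longer list of replicate 1 cannot be told apart from a deeper library.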
